A study of Mus musculus with 4 samples.

Results

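Kcnd2 and 6 genes of its channel complex, Kcnd3, Kcnip1, Kcnip3, Kcnip4, Dpp6 and Dpp10, were followed through single cells of the mouse spine. They are 7 of the 32286 genes listed in the count matrices. Kcnd2 was selected on its measured level: in these same cells it was among the leading genes of a group of cartilage cells, together with Zfp804b and Dab1. The other 6 genes were taken by symbol as its known partners. The level of Kcnd2 in those cartilage cells is therefore a description of the choice and was not tested.

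Kcnd2 and Kcnd3 encode pore subunits of Kv4 potassium channels, which open on depolarization, inactivate quickly and carry the transient A-type current of neurons and heart muscle. Kv4 pores are usually assembled with 2 kinds of helper. KChIPs, encoded by the Kcnip genes, are small EF-hand calcium sensors that bind the inner face of the pore, bring it to the cell surface and slow its inactivation, and Kcnip3 is also known as calsenilin or DREAM, a calcium-dependent transcriptional repressor. Dpp6 and Dpp10 encode single-pass membrane proteins of the dipeptidyl peptidase family that lack enzyme activity and speed the gating of the channel. The vertebral endplate is the thin cartilage layer between the disc and the bone of the vertebra.

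The cells were tdTomato-positive cells sorted from cleaned T11 to L2 vertebrae after removal of CD11b, CD31 and CD45 stained cells. Prss56-Nf1+/+ control mice carried Prss56Cre/+, R26tdTom/tdTom and Nf1+/+, and Prss56-Nf1fl/fl mutant mice carried Prss56Cre/Cre, R26tdTom/tdTom and Nf1fl/fl, each at 3 and at 12-16 months. All groups thus carried the reporter and at least 1 Cre allele, Cre dose and Nf1 genotype differed together and cannot be told apart, and recombination was limited to cells with a history of Prss56 expression. There was 1 library per condition and the number of mice behind each was not given in the sources used here, so nothing was tested between conditions. Intervals are exact 95% intervals that cover counting error only.

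After filtering, 717 cells remained for the control and 484 for the mutant at 3 months, and 135 for the control and 421 for the mutant at 12-16 months, with medians of 8189 to 12644 UMIs (counted RNA molecules) per cell. No cell barcode was shared between libraries. Nf1, the floxed gene, was at 131 CPM (UMIs per 1e6 UMIs of the group) in the 3-month control (124 to 139) and 150 CPM in the library labelled 3-month mutant (141 to 159). At 12-16 months it was at 147 CPM in the control (131 to 164) and 125 CPM in the library labelled mutant (115 to 136). Nf1 mRNA was thus 1.14 times the control level under the mutant label at 3 months (1.05 to 1.24) and 0.853 times at 12-16 months (0.742 to 0.982). Which part of Nf1 the floxed allele removes was not given in the sources used here, and 3′ reads outside it would not report its loss.

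Cells were sorted into classes by marker UMIs. Endplate cells held Sox9, the chondrocyte transcription factor, and at least 3 UMIs of Zfp804b and Dab1 together. Other cartilage cells held Sox9 and at least 3 UMIs of Acan, which encodes the cartilage proteoglycan aggrecan, and bone/stroma cells held at most 2 UMIs of Acan and at least 1 of Runx2, the osteoblast transcription factor. There were 222 endplate, 1065 other cartilage, 193 bone/stroma and 277 remaining cells of 1757. The endplate cells numbered 30 and 142 in the 3-month control and mutant libraries and 12 and 38 at 12-16 months, so the older control values rest on few cells. Endplate here names this rule only, and other cartilage can hold endplate cells too. Cells with Col10a1, by which the paper marked hypertrophic endplate chondrocytes, were mostly in other cartilage. In the same order they numbered 103 of 532, 30 of 235, 15 of 78 and 60 of 220 there. In the endplate class they numbered 3 of 30, 12 of 142, 0 of 12 and 6 of 38. The summed level of Col10a1, Ihh, Prkg2 and Panx3 was instead higher in endplate cells, at 4079, 1508, 709 and 2158 CPM. In other cartilage it was 430, 1117, 201 and 1607 CPM. Immune markers were absent from endplate cells apart from Lyz2 at 0.359 CPM in the library labelled 3-month mutant, where Ptprc, Cd74 and Igkc were at 0. The bone/stroma class did not hold to its name in that library: 23 of its 39 cells held Ptprc, the common leukocyte antigen, and its 5 osteoblast markers summed to 3007 CPM, against 15176 to 36533 CPM in the other libraries.

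Kcnd2 (ENSMUSG00000060882) spans 514303 bases of chromosome 6, from 21215503 to 21729805 on the plus strand of GRCm38 (mm10), and 1.00% of that span is exonic. Kcnip3, which spans 65597 bases, was the only member under 200 kb, a length that 3.34% of annotated genes reach. Long genes gave a larger share of UMIs in endplate cells, 9.55% to 12.0% by library, than in other cartilage, 6.01% to 7.60%, and whether intronic reads were counted was not given in the sources used here. The share of UMIs from Malat1, a nuclear RNA, was 1.33% to 2.58% in endplate cells and 1.51% to 3.12% in other cartilage. Their part in the results was not tested. The other members lie on chromosome 3 at 105452330 to 105674002 (Kcnd3, plus strand), chromosome 11 at 33629339 to 33993152 (Kcnip1, minus), chromosome 2 at 127456498 to 127522094 (Kcnip3, minus), chromosome 5 at 48389502 to 49524907 (Kcnip4, minus) and 26817203 to 27727505 (Dpp6, plus), and chromosome 1 at 123321471 to 124045559 (Dpp10, minus). No listed gene overlapped Kcnd2, Kcnip3 or Dpp10, while Kcnd3 and Kcnip1 each share their strand with 1 overlapping non-coding gene (Gm43847 and 4930469K13Rik).

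The 250 bases before the RefSeq start of Kcnd2 ( GRCm38.p6, chr6:21215096-21215345, plus strand) are shown because the gene was found in cartilage cells, and they show what kind of promoter it starts from. CpG dinucleotides are in capitals.
Kcnd2: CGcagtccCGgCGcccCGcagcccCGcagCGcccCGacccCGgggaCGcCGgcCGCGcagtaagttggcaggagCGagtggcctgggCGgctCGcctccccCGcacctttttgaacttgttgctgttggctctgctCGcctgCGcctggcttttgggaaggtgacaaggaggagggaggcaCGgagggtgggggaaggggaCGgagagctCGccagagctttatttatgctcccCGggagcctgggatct
It held 22 CpG dinucleotides and was 68.8% G and C. That GC share was above those of 89.0% of the 32851 promoters in the table, whose medians were 6 CpG and 52.4%. Neither the SOX core motif AACAAT nor the RUNX core motif ACCACA occurred in it on either strand, and these letters were present in 9.42% and 14.0% of all promoters. Among the 14 promoters listed for the 7 genes, AACAAT occurred once, in a Kcnip4 promoter, and ACCACA in none.

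Kcnd2 was found in endplate cells at every age and under both labels. It was at 69.3 CPM in endplate cells of the 3-month control (43 UMIs, 50.2 to 93.4 CPM) and at 341 CPM in those of the library labelled 3-month mutant (950 UMIs, 320 to 364). At 12-16 months it was at 144 CPM in the control (48 UMIs, 106 to 191) and at 1054 CPM in the library labelled mutant (788 UMIs, 982 to 1131). Both libraries labelled mutant lay above both controls. The 4 counting intervals did not overlap, but they leave out the spread between cells, so they do not settle the order. The order of the controls turned without the 2 richest cells of each library.

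In other cartilage cells Kcnd2 was at 2.75 CPM in the 3-month control (21 UMIs), 16.0 in the 3-month mutant (49 UMIs), 2.01 in the 12-16-month control (2 UMIs) and 71.9 in the 12-16-month mutant (152 UMIs). The endplate level was 25.2 times that of other cartilage in the 3-month control (14.6 to 44.7) and 21.3 times in the library labelled 3-month mutant (16.0 to 29.0). At 12-16 months it was 71.7 times in the control (18.8 to 609) and 14.7 times in the library labelled mutant (12.3 to 17.6). These sizes moved with the class rule and with depth. With at least 5 UMIs of Zfp804b and Dab1 the log2 ratios at 12-16 months were 0.89 in the control (6.16 as reported) and 1.13 under the mutant label (3.87 as reported). After thinning cells to 5000 UMIs and sorting them again they were 1.71 and 1.22 under the mutant label at 3 and 12-16 months. Of all 2060 Kcnd2 UMIs, 1829 (88.8%) were in endplate cells, 224 in other cartilage, 6 in bone/stroma and 1 in the remaining cells. Bone/stroma cells held 0, 2, 1 and 3 Kcnd2 UMIs in the control and mutant libraries at 3 months and the control and mutant libraries at 12-16 months, and the 2 UMIs of the library labelled 3-month mutant were in Ptprc-positive cells.

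**Figure D1:**
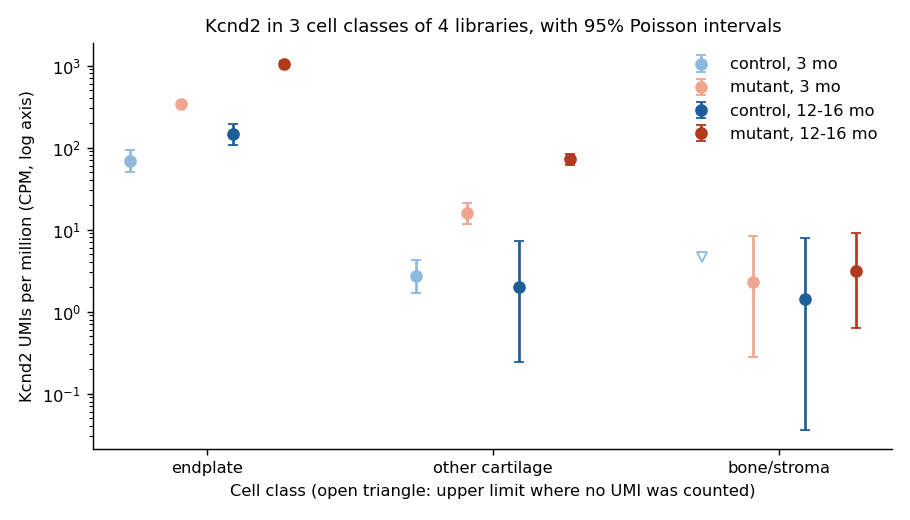
Kcnd2 CPM (log axis) in endplate, other cartilage and bone/stroma cells of the 4 libraries, with 95% Poisson intervals of the count and an open triangle at the upper limit where no UMI was counted. Endplate values lie between 69.3 and 1054 CPM, and every bone/stroma value is at or below 3.10 CPM.

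The share of endplate cells with at least 1 Kcnd2 UMI was 33.3% in the 3-month control (10 of 30 cells), 16.2% in the library labelled 3-month mutant (23 of 142), 33.3% in the 12-16-month control (4 of 12) and 34.2% in the library labelled 12-16-month mutant (13 of 38). After thinning every cell to 5000 UMIs, which left out 3 cells, the expected shares were 21.9%, 12.6%, 24.4% and 30.1% in the same order. In other cartilage the share was 1.88% to 5.0%. Among 54 immune reference cells (Ptprc present, Sox9 and Runx2 absent), which should lack the gene, 1 cell held Kcnd2 (1.85%), at a median depth of 5041 UMIs against 17605.5 to 26897.5 in endplate cells. The share was thus not higher under the mutant label at 3 months, where the CPM was higher, and no order of the conditions was read from the shares.

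Kcnd2 UMIs were packed into few cells. In endplate cells of the library labelled 3-month mutant, 2 cells held 355 and 349 UMIs, which was 74.1% of the total there and the sixth highest such share among 7792 genes with at least 40 UMIs, whose median was 9.21%. In the first of these cells Kcnd2 had more UMIs than any other gene (2.84% of 12490), and in the second it ranked second (2.13% of 16399). In the library labelled 12-16-month mutant the 2 richest of 13 positive cells held 314 and 85 UMIs (50.6%), and 10 of the 13 held at least 10 UMIs. The richest control endplate cells held 12 UMIs at 3 months and 27 at 12-16 months. The 2 richest cells held 46.5% and 81.2% of the counts in the 3-month and 12-16-month control libraries, where the medians over genes were 24.3% and 33.9%. Higher shares were held by 7.47% and 1.86% of genes there, and by 3.17% in the library labelled 12-16-month mutant (median 19.4%). The older control had only 4 positive cells, so a high share in 2 of them says little. Zfp804b had 13.8% and Dab1 9.45% of their endplate counts in 2 cells of the library labelled 3-month mutant. In the 3-month control, with 30 cells, Zfp804b had 45.0% in 2 cells, close to the 46.5% of Kcnd2.

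Over all classes 30 cells held at least 10 Kcnd2 UMIs, 22 of them endplate and 8 other cartilage, and 27 came from the libraries labelled mutant. The 22 endplate cells were 1 of 30 and 9 of 142 in the 3-month control and mutant, and 2 of 12 and 10 of 38 at 12-16 months. The 8 other cartilage cells were 0 of 532 and 2 of 235 at 3 months, and 0 of 78 and 6 of 220 at 12-16 months. All 30 also held Runx2 and Acan, though Acan was part of the rule for the 8 other cartilage cells. Among endplate cells without Kcnd2, 90% to 100% by library held Runx2 and 87.5% to 100% held Acan. All 9 cells with at least 50 UMIs came from the libraries labelled mutant, which also held most of the endplate cells. Of these 9, 2 held at least 3 UMIs of non-skeletal markers: the cell with 314 Kcnd2 UMIs also held 3 UMIs of the neuronal gene Rbfox3 and 1 of Mbp, and the cell with 83 held 8 UMIs of the synaptic gene Syt1 and 1 of Tagln. Over whole endplate classes the 7 Schwann cell and neuron markers summed to 12.0 to 30.8 CPM, and Sox10 was at 0 in all 4 libraries. The part of these markers in the Kcnd2 level was not tested.

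**Figure D2:**
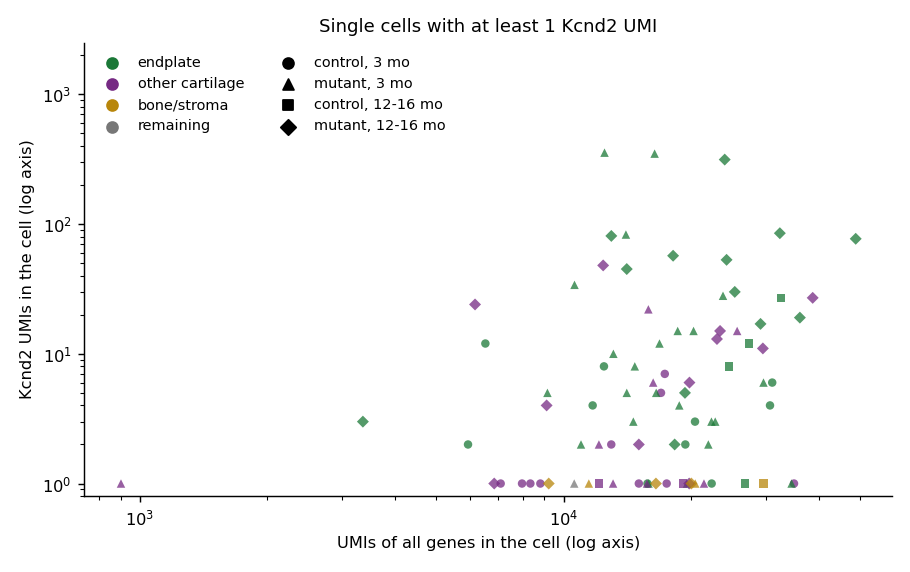
Kcnd2 UMIs against the UMIs of all genes for the 88 cells with at least 1 Kcnd2 UMI (both axes logarithmic), with colour for the class and symbol for the library. The 3 cells above 300 UMIs are endplate cells of the libraries labelled mutant with 12490 to 24003 UMIs in all, and cells of similar depth hold as little as 1 Kcnd2 UMI.

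Around the threshold of the class rule the cells were too few to show whether Kcnd2 had a step. Just below it, among Sox9-positive cells with 2 UMIs of Zfp804b and Dab1 together, 5 of 12 held Kcnd2 (41.7%, 15.2% to 72.3%, 74 UMIs). Just above it, with 3 UMIs, 4 of 18 did (22.2%, 6.41% to 47.6%, 156 UMIs). The share was 2.15% with neither gene (23 of 1069 cells), 14.8% with 1 UMI (4 of 27) and 23.4% with 5 or more (43 of 184). Median depth was 10871 UMIs in the cells with neither gene and 14660 to 20124.5 UMIs in the other steps.

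Runx2, which the endplate rule did not use, went with Kcnd2 in cartilage cells as a whole. Among the cells with Sox9 and at least 3 UMIs of Acan, 70 of 393 with Runx2 also held Kcnd2 (17.8%), against 11 of 893 without Runx2 (1.23%). The median depths were 18066 and 10562 UMIs, and after thinning both genes together to 5000 UMIs the expected shares were 15.4% and 1.04%. Within libraries the Runx2-positive shares were 14.9% and 14.5% in the 3-month control and mutant and 20.8% and 28.0% in the 12-16-month control and mutant, and the Runx2-negative shares were 0.568% to 1.63%. Among cells with neither Zfp804b nor Dab1, 13 of 146 with Runx2 held Kcnd2 (8.90%) and 9 of 881 without (1.02%). These 2 groups held 109 and 10 Kcnd2 UMIs, and 72 of the 109 were in the 12-16-month mutant library. Their median depths were 15995 and 10575 UMIs, and after thinning the expected shares were 8.41% and 0.697%. By library the thinned shares were 3.52% against 0.812% and 6.41% against 0.377% in the 3-month control and mutant. At 12-16 months they were 1.31% against 0.981% in the control and 22.8% against 0.610% in the mutant. Over all these cartilage cells, whatever their Zfp804b and Dab1, the Runx2-positive cells held 2039 Kcnd2 UMIs and the Runx2-negative cells 14. Within the endplate class the association did not hold, since 90% to 100% of the cells without Kcnd2 also held Runx2. Its level there was lower with Kcnd2, at 573 against 1068 and 763 against 910 CPM in the 3-month control and mutant. At 12-16 months it was at 782 against 848 CPM in the control and 558 against 1097 CPM in the mutant.

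Within the endplate class, the summed levels of Col10a1 and Ibsp differed between cells with and without Kcnd2. Acan was at 3391 to 4525 CPM in the cells with Kcnd2 and at 3421 to 3920 CPM in those without. Col10a1, the collagen of hypertrophic chondrocytes, had 0 UMIs in the 10 cells with Kcnd2 of the 3-month control and 1430 in the 20 cells without. In the libraries labelled mutant it had 1 against 817 UMIs at 3 months and 0 against 557 at 12-16 months, and in the 12-16-month control it had none in either group. These Col10a1 UMIs came from 3 of 20, 11 of 119 and 6 of 25 cells without Kcnd2, so few cells carried them. With Kcnd2, 0 of 10, 1 of 23 and 0 of 13 cells held Col10a1. Outside the endplate class the 2 genes also occurred together. In other cartilage of the 12-16-month mutant library, 1 cell held 11 Kcnd2 and 128 Col10a1 UMIs, and another held 6 and 1090. The other hypertrophic genes, Ihh, Panx3 and Prkg2, did not all follow Col10a1. Ihh was at 160 against 118 CPM with and without Kcnd2 under the 3-month mutant label and at 55.5 against 154 CPM at 12-16 months. Panx3 was at 117 against 201 and 199 against 104 CPM there, and both genes were at 0 with Kcnd2 in the controls. Prkg2 was lower with Kcnd2 in all 4 libraries, but stood at 947 against 1301 CPM under the 12-16-month mutant label.

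Ibsp, which encodes bone sialoprotein, was lower in the cells with Kcnd2 in all 4 libraries, at 0 against 1870 CPM in the 3-month control and 41.3 against 1451 in the library labelled 3-month mutant. It was at 0 against 641 CPM in the 12-16-month control and 450 against 841 in the library labelled 12-16-month mutant. At that age few cells held Ibsp, 0 of 4 against 4 of 8 in the control and 3 of 13 against 6 of 25 in the mutant. The shares of the mutant, 23.1% and 24.0%, hardly differed. Col2a1, the main collagen of cartilage, was lower with Kcnd2 at 3 months (6861 against 11842 and 3661 against 6545 CPM) and higher at 12-16 months (8724 against 5298 and 10452 against 7630 CPM). Other osteoblast genes did not follow Ibsp in every library. Alpl was at 583 and 579 CPM with and without Kcnd2 under the 3-month mutant label and at 721 and 535 CPM under the 12-16-month mutant label. Bglap, which encodes osteocalcin, was at 0 against 1115 CPM in the 3-month control and at 183 against 20.4 CPM in the library labelled 12-16-month mutant.

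In the comparison of genotypes, Kcnd2 in endplate cells was 4.92 times as high under the mutant label at 3 months (3.63 to 6.85) and 7.31 times at 12-16 months (5.46 to 10.0). The class itself differed by label, with 4.18% and 29.3% of the control and mutant cells at 3 months and 8.89% and 9.03% at 12-16 months. Zfp804b, a gene of the class rule, was also higher under the mutant label. In endplate cells without Kcnd2 it was at 584 and 1633 CPM at 3 months and 126 and 558 CPM at 12-16 months. Dab1 was higher only at 3 months. Their part in the ratio was not tested. In this comparison 9.46% of 10451 genes were at least 2-fold higher at 3 months and 7.89% of 7173 at 12-16 months. Among genes of at least 200 kb, as Kcnd2 is, these shares were 18.4% and 13.2%. Without the 2 richest cells of each library the log2 ratio was 1.22 at 3 months (2.30 with them) and 4.09 at 12-16 months (2.87 with them), and the older control was then left with 9 UMIs. Other cartilage showed the same direction, with 5.82 times the control level at 3 months (3.43 to 10.2) and 35.7 times at 12-16 months (9.72 to 298, against 2 control UMIs). The log2 ratio there ranged from 1.61 (endplate class set by Runx2) to 4.58 (thinned) at 3 months and fell to 3.00 at 12-16 months with at least 5 UMIs of Zfp804b and Dab1. Of all genes, 4.77% and 4.22% were at least 2-fold higher there, and of genes of at least 200 kb, 14.3% and 12%.

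Between ages, Kcnd2 in endplate cells was 2.08 times as high at 12-16 as at 3 months in the control (1.35 to 3.21) and 3.09 times in the libraries labelled mutant (2.81 to 3.40). The mutant log2 ratio of 1.63 ranged from 0.43 (thinned) to 2.66 (without the 2 richest cells) over 13 settings, and was 0.55 with at least 5 UMIs of Zfp804b and Dab1. The background of genes at least 2-fold higher was 7.25% and 8.11%, and 12.2% and 5.81% among genes of at least 200 kb. The control value turned to a log2 ratio of -0.21 without the 2 richest cells and to -0.27 with a minimum of 5 UMIs of Zfp804b and Dab1, so its direction rests on the cells with 27 and 12 UMIs. In other cartilage Kcnd2 was 0.732 times as high at 12-16 months in the control (0.0832 to 3.00) and 4.49 times in the libraries labelled mutant (3.23 to 6.33), with backgrounds of 6.7% and 3.91% of genes. Among genes of at least 200 kb those backgrounds were 10.4% and 6.18%.

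**Figure D3:**
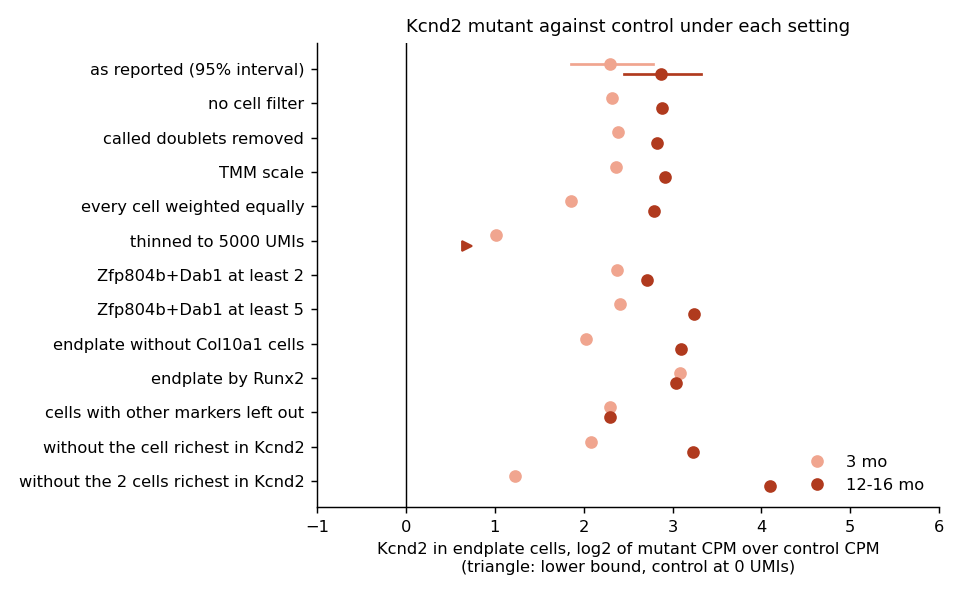
Log2 ratio of Kcnd2 CPM in endplate cells, mutant over control label, at 3 months (light) and 12-16 months (dark) as reported, with its 95% interval, and under each other setting. All values lie above 0, from 0.69 (a lower bound after thinning, with 2 control cells and no control UMI left) to 4.09.

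Kcnd3, the other Kv4 pore gene chosen, was almost absent. It had 27 UMIs in 14 cells of all libraries and none in 222 endplate cells, where the exact upper limits of 0 UMIs were 1.33 to 11.1 CPM by library. Other cartilage held 10, 1, 4 and 5 UMIs in the control and mutant at 3 months and the control and mutant at 12-16 months. The 12-16-month counts were 1 cell each, with 4 and 5 UMIs, and 5 of the 7 bone/stroma UMIs were in 1 cell of the 12-16-month control that held 83 UMIs of Runx2 and 296 of Cxcl12, a chemokine of marrow stroma. Kcnd1, the third pore gene of the family, had 17 UMIs in 15 endplate cells, 7 in other cartilage and 11 in bone/stroma.

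Of Kcnip1, Kcnip3 and Kcnip4, Kcnip3 was found most often beside Kcnd2. In endplate cells it was at 16.1 CPM in the 3-month control (10 UMIs, 7.73 to 29.7), 7.19 in the library labelled 3-month mutant (20 UMIs, 4.39 to 11.1), 12.0 in the 12-16-month control (4 UMIs, 3.27 to 30.8) and 28.1 in the library labelled 12-16-month mutant (21 UMIs, 17.4 to 42.9). It was found in 16.7%, 11.3%, 16.7% and 39.5% of those cells, and in 7.82%, 3.92%, 4.12% and 12.2% after thinning. In other cartilage it was found in 0.426% to 2.27% of cells, and in immune reference cells in 2 of 54 (3.70%). The immune cells were shallower, with a median depth of 5041 UMIs. After thinning, the endplate shares of the 3-month mutant and the 12-16-month control were close to the immune share. In the 3-month mutant library 1 of 19 immune cells held Kcnip3 (5.26%), so no excess over immune cells was read there. The endplate level was 30.8, 5.50, 11.9 and 8.49 times that of other cartilage in the same order, with lower bounds of 8.88, 1.84, 1.18 and 3.48.

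Bone/stroma cells held Kcnip3 too, with 6, 28, 9 and 25 UMIs (7.60, 32.5, 12.7 and 25.8 CPM). In the library labelled 3-month mutant 22 of the 28 UMIs were in the 23 Ptprc-positive cells, and the level was 32.7 CPM in them and 31.8 CPM in the other 16 cells. Between endplate genotypes the ratio was 0.446 at 3 months (0.199 to 1.07) and 2.34 at 12-16 months (0.789 to 9.37), and both intervals held 1. With the endplate class set by Runx2 the 3-month direction turned, with 5.39 CPM in the control and 6.41 CPM under the mutant label. Of the 5 members with at least 20 UMIs at 3 months, Kcnd2 and Kcnip1 were at least 2-fold higher, beside 9.46% of all genes, and Kcnip3 and Kcnip4 at least 2-fold lower, beside 6.54%. Among genes of at least 200 kb, 18.4% were higher and 7.07% lower. The Kcnip1 ratio of 5.13 compared 23 UMIs with 1 and its interval held 1 (0.832 to 211). Bone/stroma Kcnip3 was 4.27 times as high under the mutant label at 3 months (1.74 to 12.6), where 23.4% of genes were at least 2-fold higher. In endplate cells of the libraries labelled mutant Kcnip3 was 3.91 times as high at 12-16 as at 3 months (2.02 to 7.60). There 8.11% of genes were at least 2-fold higher.

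Kcnip4 had 113 of its 171 UMIs in bone/stroma cells, mostly of the older mice, and 39 in endplate cells. By cells it was in 14 of 193 bone/stroma cells (7.25%) and 19 of 222 endplate cells (8.56%). In bone/stroma it had 3 and 1 UMIs at 3 months, in the control and mutant, and 18 and 91 at 12-16 months (25.3 and 93.9 CPM). At 12-16 months the mutant level was 3.71 times the control level (2.22 to 6.53), where 14.1% of genes were at least 2-fold higher (21.9% of genes of at least 200 kb). Of the 91 UMIs, 69 were in 2 of 83 cells, with 36 and 33 UMIs. Those cells held 75 and 64 UMIs of Runx2, 44 and 52 of the alkaline phosphatase gene Alpl and 43 and 53 of Ibsp, and no Ptprc. The osteoblast genes Sp7 (0 and 1 UMIs) and Bglap (6 and 1) were low in them, and the stromal genes Lepr (6 and 4) and Cxcl12 (10 and 4) were present. In endplate cells Kcnip4 was at 25.8 and 6.11 CPM at 3 months, in the control and mutant (16 and 17 UMIs), and at 15 and 1.34 CPM at 12-16 months (5 and 1 UMIs). The mutant label was lower at both ages, 0.237 times (0.112 to 0.501) and 0.0891 times (0.00188 to 0.796), but 12 of the 16 UMIs of the 3-month control were in 1 cell, which also held 6 UMIs of Syt1. Without cells holding non-skeletal markers the 3-month direction turned, with 3.44 CPM in the control (2 UMIs) and 6.62 CPM under the mutant label (17 UMIs).

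Kcnip1 came as scattered single UMIs. Of 126 UMIs in all, 24 were in 22 endplate cells, 62 in 58 other cartilage cells and 23 in 17 bone/stroma cells. Endplate cells held 1, 23, 0 and 0 UMIs in the control and mutant at 3 months and the control and mutant at 12-16 months. In other cartilage it was at 2.75 and 9.47 CPM at 3 months and at 9.06 and 1.42 CPM at 12-16 months, so the higher library was labelled mutant at 3 months and control at 12-16 months. It was found in 4 of 19 immune reference cells (21.1%) of the library labelled 3-month mutant, against 14.8% of endplate cells there, and in 1 of 23 and 0 of 12 such cells of the 12-16-month mutant and 3-month control. The endplate share was not above that of the immune cells, and no expression was read from it. Kcnip2, the remaining KChIP gene, had 23 UMIs in 22 endplate cells, at 4.01 to 6.45 CPM by library, and was at 1.44 to 5.03 CPM in other cartilage.

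**Figure D4:**
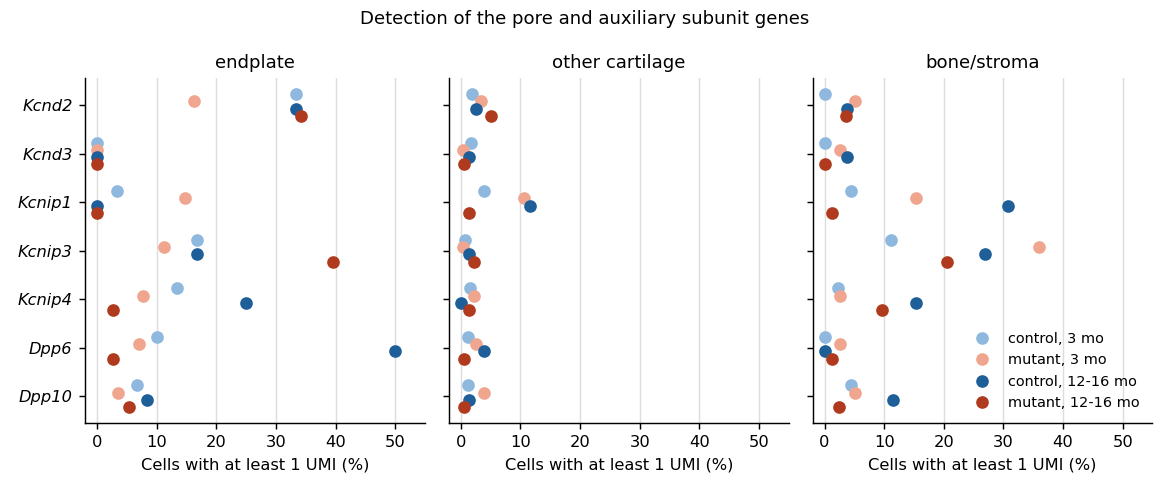
Percent of cells with at least 1 UMI of each of the 7 genes in endplate, other cartilage and bone/stroma cells, with a point for each library. Kcnd2 lies at 16.2% to 34.2% of endplate cells and at most 5.13% elsewhere, Kcnd3 at 0 in endplate cells, and Kcnip3 in both endplate and bone/stroma cells.

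Dpp6 was found mainly in endplate cells, which held 68 of its 105 UMIs. It was at 17.7 CPM in the 3-month control (11 UMIs, 8.85 to 31.7), 9.70 in the library labelled 3-month mutant (27 UMIs, 6.39 to 14.1), 87.1 in the 12-16-month control (29 UMIs, 58.3 to 125) and 1.34 in the library labelled 12-16-month mutant (1 UMI, 0.034 to 7.45). Of the 29 UMIs of the older control, 20 were in 1 of 12 cells and 5 in another, and 6 cells held the gene. The endplate level was 9.03, 3.30 and 12.4 times that of other cartilage in the first 3 libraries (lower bounds 3.75, 1.51 and 5.30). Across genotypes Dpp6 was 0.547 times as high under the mutant label at 3 months (0.263 to 1.22) and 0.0154 times at 12-16 months, with an upper bound of 0.0926. At 12-16 months 5.56% of genes were at least 2-fold lower (9.67% of genes of at least 200 kb).

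With age Dpp6 in endplate cells was 4.91 times as high in the control (2.38 to 10.9) and 0.138 times as high in the libraries labelled mutant (0.00337 to 0.837). Of the 29 UMIs behind the control value, 20 were in a single cell. Dpp10 had 48 UMIs in all, 12 in 10 endplate cells, at 2.16 to 6.01 CPM by library, and was at 0.473 to 2.94 CPM in other cartilage. No Dpp10 interval of endplate cells was apart from another.

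Among the endplate and other cartilage profiles, 3 of 4 members with at least 20 UMIs were at least 2-fold higher in endplate cells of the 3-month control, against 15.7% of all genes tested and 37.5% of genes of at least 200 kb. In the other libraries it was 4 of 5 under the 3-month mutant label (13.5% and 39.5%), 2 of 2 in the 12-16-month control (15.7% and 43.2%) and 2 of 2 under the 12-16-month mutant label (12.7% and 34.3%). The choice of Kcnd2 used this contrast, and members reach 20 UMIs mostly through the class where they are high.

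Of the 88 cells with Kcnd2, 29 also held Kcnip1, Kcnip3 or Kcnip4, 8 held Dpp6 or Dpp10, 2 held both kinds and 53 held none of these 5 genes. Kcnip3 was in 22 of them, Dpp6 in 6, Kcnip1 and Kcnip4 in 5 each, Dpp10 in 2 and Kcnd3 in 1. Of the 9 cells with at least 50 Kcnd2 UMIs, 6 held none of the 5 and none of the 5 exceeded 1 UMI. At this depth a gene present at few molecules is often missed, so absence of a UMI is no absence of the mRNA.

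In endplate cells Kcnip3 was found in 17 of 50 cells with Kcnd2 (34.0%, 21.2% to 48.8%) and 21 of 172 without (12.2%, 7.72% to 18.1%). The median depths were 19044.5 and 18611 UMIs, and after thinning the expected shares were 10.9% and 4.80%. The direction was the same in each library, at 40.0% against 5.0% and 21.7% against 9.24% in the 3-month control and mutant, and 25.0% against 12.5% and 53.8% against 32.0% in the 12-16-month control and mutant. Few cells lie behind the control shares, since Kcnip3 was in 5 of 30 endplate cells at 3 months and 2 of 12 at 12-16 months. In the older control a single cell could turn the direction. In the 12-16-month mutant the positive cells were deeper, with medians of 24003 against 16878 UMIs. That library, where Kcnip3 was found most often, gave 13 of the 50 cells with Kcnd2 and 25 of the 172 without. The pooled shares and intervals therefore also carry differences between libraries, whose part was not tested. The other 4 auxiliary genes were found in 2.0% to 6.0% of cells with Kcnd2 and 5.23% to 11.0% without, with overlapping intervals.

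**Figure D5:**
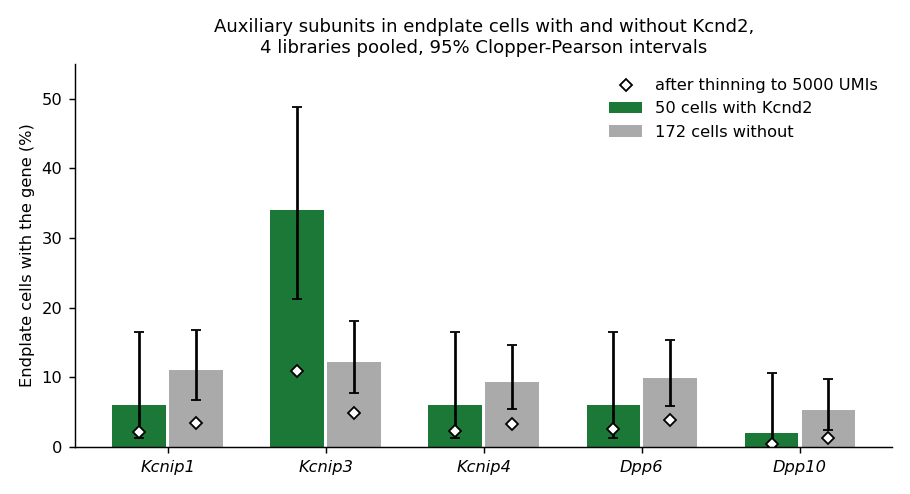
Percent of endplate cells with each auxiliary gene among the 50 cells with Kcnd2 (green) and the 172 without (grey), 4 libraries pooled, with 95% Clopper-Pearson intervals and diamonds at the expected percent after thinning to 5000 UMIs. Kcnip3 stands at 34.0% and 12.2%, and the other 4 genes lie lower in the cells with Kcnd2, with intervals that overlap.

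The wider lists of channel genes were described by counts. Of 10 other genes of the Kv4 complex, only Kcnip2 reached 20 UMIs in endplate cells, and the 5 Kcne genes together had 1 UMI there. Of 37 other voltage-gated potassium channel genes, 4 reached it: Kcna6, Kcnh1, Kcnq5 and Kcns1. Kcnq5, which encodes a slow M-type channel, was the reverse of Kcnd2, at 191 to 432 CPM in endplate cells and 815 to 1242 CPM in other cartilage, lower in endplate cells in all 4 libraries. Kcnh1, an ether-a-go-go channel gene, was at 13.7 to 40.1 CPM in endplate cells and 1.96 to 7.56 CPM in other cartilage. Kcna6, a Kv1 pore gene, was at 109 to 207 and 71.5 to 138 CPM, and Kcns1, a silent modifier subunit, had 28 UMIs in endplate cells.

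Of 23 other potassium channel genes, 3 reached 20 UMIs in endplate cells. Kcnma1, which encodes the large-conductance calcium-activated channel, was at 2017 to 4382 CPM in endplate cells and 876 to 1714 CPM in other cartilage. Kcnk5, a two-pore leak channel gene, was at 83 to 183 and 38.7 to 78.5 CPM, and Kcnj15, an inward rectifier gene, had 44 UMIs. Under the mutant label in endplate cells Kcnma1 and Kcnj15 of 3 genes with enough UMIs were at least 2-fold higher at 3 months (9.46% of all genes), and Kcnk5 of 2 at 12-16 months (7.89%).

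Of 9 calcium and mechanical channel genes, 7 reached 20 UMIs. Piezo2, a stretch-activated channel, was at 21.4 to 90.1 CPM in endplate cells and 1.01 to 13.7 CPM in other cartilage, and Cacna1c, the L-type calcium channel pore, was at 34.8 to 78.1 and 4.25 to 17.1 CPM. Cacna2d1, the alpha2delta subunit, was at 145 to 294 and 55.1 to 93.1 CPM, and Trpv4, an osmotically gated channel, at 218 to 325 and 147 to 167 CPM. Cacnb2 had 18, 125, 0 and 1 UMIs in endplate cells, so nearly all its counts were from the 3-month libraries. Piezo1 was lower in endplate cells of the library labelled 3-month mutant, at 26.2 against 97.7 CPM, and Cacna1d had 50 UMIs. Under the mutant label, of 7 genes with enough UMIs at 3 months Cacna1d was at least 2-fold higher (9.46% of all genes) and Piezo1 at least 2-fold lower (6.54%). Of 5 at 12-16 months Cacna1c and Piezo2 were at least 2-fold lower (5.56%).

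Among 6 relatives of Dpp6 that are enzymes of the prolyl peptidase family, Fap was at 452 to 703 CPM in endplate cells and 64.4 to 204 in other cartilage, and Dpp7, a lysosomal enzyme, was the reverse at 5.39 to 9.67 against 23.8 to 62.7 CPM. Dpp8 (41.5 to 66.1 CPM), Dpp9 (15.4 to 26.8) and Prep (4.84 to 10.7) were present in endplate cells, and none of the 5 moved 2-fold between endplate genotypes among those with at least 20 UMIs. Of 6 neuronal calcium sensor genes related to the KChIPs, Ncs1 had 55 and Hpcal1 50 UMIs in endplate cells, and neither was 2-fold different between genotypes at 3 months.

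The genes whose levels followed Kcnd2 most closely over the 12 profiles of 3 classes and 4 libraries were ranked by Pearson's r of log2(CPM + 10) among 11445 genes. Those named are Tenm2 (r = 0.954), Slc25a48 (0.940), Veph1 (0.938), Scpep1 (0.933), Mindy4 (0.933), Arhgap8 (0.931), Ptprn2 (0.928), Gjb6 (0.924) and Grik4 (0.922). The profiles share class rules, libraries and depth, and this likeness is a description. Tenm2, which encodes the adhesion protein teneurin-2, was at 37.1 and 322 CPM in endplate cells of the 3-month control and mutant and 39.1 and 332 CPM in those at 12-16 months.

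Without the 30 cells with at least 10 Kcnd2 UMIs, 154 Kcnd2 UMIs were left in the 12 profiles, and r was 0.63 for Tenm2 and between 0.67 and 0.88 for the other 8 named. Among endplate cells Tenm2 was found in 36 of 50 with Kcnd2 (72.0%) and 107 of 172 without (62.2%), Slc25a48 in 44.0% and 20.9%, and Grik4, a kainate receptor subunit gene, in 60.0% and 37.8%. Scpep1 (82.0% and 79.1%) hardly differed between these cells, and Veph1 was found less often in those with Kcnd2 (12.0% and 17.4%). The Ptprn2 shares (52.0% and 52.3%) pooled opposite directions. With and without Kcnd2 it was in 8 of 10 and 7 of 20 cells of the 3-month control. In the 3-month mutant it was in 6 of 23 and 62 of 119. At 12-16 months it was in 3 of 4 and 5 of 8 control cells and 9 of 13 and 16 of 25 mutant cells. All these shares pool the 4 libraries, whose part was not tested. Of the auxiliary genes with at least 100 UMIs over the 12 profiles, Dpp6 had r = 0.367, Kcnip3 0.231, Kcnip4 -0.130 and Kcnip1 -0.535.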

How the data were processed

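The authors deposited filtered UMI counts per gene and cell, 1 matrix per library, made with Cell Ranger 8.0.0 (file headers) on mm10. The counts are 3′ tags from the Chromium v3.1 kit, not normalized, and integration by the authors is not in them. Barcodes passed with UMIs above 750, genes above 500 and a mitochondrial share below 7% (1757 of 2172 barcodes, 2154537 to 9429264 UMIs per library). Raw counts were summed per class and library and given as CPM with exact Poisson, conditional binomial or Clopper-Pearson intervals. Ratios against 0 used a floor of 3 counts over the group. Genes with at least 20 UMIs over a pair made up the background, called at 2-fold with 0.5 counts added. No test was made, since each condition had a single library. Thinning to 5000 UMIs used hypergeometric expectations for detection. The ratios after thinning came from a single random draw of each cell, after which the cells were sorted into classes again. Doublets were called with Scrublet in scanpy 1.11.5 (2, 4, 9 and 4 cells, in the order control and mutant at 3 months, then at 12-16 months) and kept in the main values, and the caller marked 0.279% of the 3-month control. TMM factors came from edgeR 4.0.16. The computation was tested on simulated data. The members and gene lists were chosen with earlier results of these data known. The genes named were the 7 members, list genes with at least 20 UMIs in endplate cells, the 10 genes most like Kcnd2 (1 of them is not reported here), and marker genes. Kcnd1, the Kcne counts and the marker genes of single cells were chosen after their values were seen. Coordinates are from GENCODE M21. Alternatives covered the cell filter, class rule, doublets, scale and richest cells.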

Additional observations from a re-analysis of the deposited data

Results flagged for a closer look

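Kcnip3 in endplate cells was flagged because its direction under the mutant label differed between ages, 0.446 times the control level at 3 months and 2.34 times at 12-16 months. With the endplate class set by Runx2 the 3-month direction turned (log2 ratio 0.25), so the ages then no longer differed in direction. Dpp6 in endplate cells was flagged because its direction with age differed between genotypes, 4.91 times as high at 12-16 months in the control and 0.138 times as high under the mutant label. Both rest on 1 library per condition, and neither difference was tested. Kcnd2 was flagged in barcodes that failed the cell filters, where the library labelled 12-16-month mutant held 7 UMIs and the other 3 libraries 1 or 2.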

How the results depend on the processing

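No paired analysis was possible because each condition had 1 library. Of 127 values of 10 Kcnd2 log2 ratios under 13 settings, 93 moved by less than their counting interval, 32 moved by more and 2 reversed. One setting left out shared barcodes, of which there were none, so its 10 values among the 93 could not move. Leaving Col10a1 cells out of the endplate class likewise could not change the genotype ratios of other cartilage. The endplate excess over other cartilage became 5.50 (3-month control) and 4.21 (12-16-month mutant) with every cell weighted equally, 3.62 (12-16-month mutant) on the TMM scale, 1.71 and 1.22 (3-month and 12-16-month mutant) after thinning, 5.32 and 4.20 (same libraries) with at least 2 UMIs of Zfp804b and Dab1, and 0.89 and 1.13 (12-16-month control and mutant) with at least 5. It became 6.53 and 9.89 (3-month and 12-16-month mutant) with the endplate class set by Runx2, 3.23 (12-16-month mutant) without cells holding other markers, and at least 3.40 (12-16-month control) without the 2 richest cells. The mutant to control ratio in endplate cells became 1.01 at 3 months and at least 0.69 at 12-16 months (against 2 control cells with no Kcnd2 UMI) after thinning, 3.08 at 3 months with the Runx2 class, 2.29 at 12-16 months without cells holding other markers, and 1.22 and 4.09 without the 2 richest cells. In other cartilage it became 4.58 (thinned), 1.65 (at least 2 UMIs), 1.61 (Runx2 class) and 1.75 (without the 2 richest cells) at 3 months, and 3.00 (at least 5 UMIs) at 12-16 months. The age ratio in endplate cells became 0.087 (equal weight), -0.27 (at least 5 UMIs) and -0.21 (without the 2 richest cells) in the control. In the mutant it became 1.01 (equal weight), 0.43 (thinned), 1.46 and 0.55 (at least 2 and 5 UMIs), 1.32 (Runx2 class), 1.07 (other markers left out) and 2.66 (without the 2 richest cells). Kcnip3 between genotypes at 3 months reversed to 0.25 with the Runx2 class, from -1.17. Genes past 2-fold between endplate genotypes numbered 1672 at 3 months (3217 with at least 5 UMIs, 517 with at least 100) and 965 at 12-16 months (2527 and 135). The causes were not tested. No value could be computed for 8 others, mostly after thinning. Leaving out the 2 richest cells was chosen after seeing the data, as were the Ptprc split of bone/stroma cells and the likeness without the richest cells. With 1 library per condition, differences between mice and between libraries cannot be told apart from genotype and age.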
